A study of Mus musculus with 4 samples.

Results

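The integrin and laminin subunit genes were taken from the deposited expression matrix as the protein-coding rows whose symbol was Itga or Itgb followed by a number or by d, e, l, m, v or x, or Lama, Lamb or Lamc followed by a number. This rule used names and no measured value. It found 37 of 49585 rows, 26 for integrins and 11 for laminins, which carried 36 symbols because Itgam stood on 2 rows. Of the 37 rows, 21 had an FPKM of 1 or more in some library, as did 12669 genes in all, and these 21 are called expressed here. FPKM counts the read pairs (fragments) of a gene per length of its exons and per total of the library, so levels of different genes can be compared.

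Integrins are cell surface receptors made of an α and a β subunit, and the pair decides which matrix protein is bound. Laminins are trimers of an α, a β and a γ chain that form the sheet of the basement membrane under epithelia. In epithelial tumors the receptors of laminin, fibronectin and collagen hold the cells to the matrix and carry signals from it into the cell.

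Bulk RNA-seq was made from the murine triple-negative breast cancer line 4T1, from which clones had been derived by limiting dilution. The clone 4T1–HM stands for highly metastatic cells and the clone 4T1–LM for lowly metastatic cells, as chosen in vitro and in vivo. Each clone was cultured for 48 h with the iron chelator deferasirox (DFX) at 50 µmol/L or with the vehicle DMSO. The groups HM_Ctrl, HM_DFX, LM_Ctrl and LM_DFX hold 1 library each, and both controls carried DMSO. Each capacity is modelled by 1 clone, so a difference between HM and LM cannot be told apart from a difference between any 2 clones. With 1 library per condition no difference has a replicate check, no test was possible, and "called" means only a change of at least 2-fold in FPKM + 1 between 2 libraries. Intervals are exact 95% intervals of the ratio of FPKM, computed from fragments recovered from the values, and cover counting error only. In bulk RNA, fewer cells that express a gene and less RNA per cell cannot be told apart.

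The libraries held between 14363065 and 21883853 fragments, solved from the values. All 7 epithelial markers were expressed (Krt8, Krt18, Krt7, Krt19, Krt14, Epcam and Cdh1), and their summed FPKM was 1767 without and 565 with DFX in HM, and 2298 without and 1072 with DFX in LM. Of 12 leukocyte markers, 5 were at 0 in all libraries and 2 were expressed. These were Cd68, a lysosomal protein, at an FPKM of 12.9, 37.4, 12.3 and 83.1 in HM_Ctrl, HM_DFX, LM_Ctrl and LM_DFX, and Lcp1 at 0.207, 0.0366, 4.33 and 1.17. The list as a whole summed to between 13.5 and 84.5, and Ptprc, the pan-leukocyte marker CD45, stayed at or under 0.0139. Of 8 endothelial and fibroblast markers, Pdgfra alone was expressed, and the list summed to between 2.78 and 5.53. Of the receptors that define triple-negative cells, Esr1 and Pgr were under an FPKM of 1 and Erbb2 lay between 3.80 and 12.5. All 8 genes known to respond to iron chelation, among them Tfrc, Ndrg1 and Vegfa, were higher with DFX in both clones. Of these, 2 were called in HM and 7 in LM, where 6.93% and 7.09% of all expressed genes were called higher. Without DFX, 5 of the 8 were already called higher in HM than in LM, against 3.65% of all expressed genes. Under DFX, 0 were called higher and 1 lower in HM than in LM. The counts of 2 and 7 thus start from unlike controls.

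The α subunits that bind laminin gave most of the integrin α transcript without DFX. Itga3 (ENSMUSG00000001507, mm10 chromosome 11, 95044474 to 95076801, minus strand) encodes α3, the partner of β1 in a receptor for epithelial laminins. It had an FPKM of 414 (HM_Ctrl), 56.7 (HM_DFX), 335 (LM_Ctrl) and 83.4 (LM_DFX). It ranked 89 and 125 among the 12669 expressed genes in HM_Ctrl and LM_Ctrl, and 934 and 609 with DFX. The level was 7.30-fold lower in HM_DFX than in HM_Ctrl (95% interval 7.08 to 7.53) and 4.01-fold lower in LM_DFX than in LM_Ctrl (3.93 to 4.11). Both control libraries were thus far above both DFX libraries. The log2 changes of FPKM + 1 were -2.85 and -1.99, and the 2 clones themselves differed by 0.31 without DFX and -0.55 with it.

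Itga6 (ENSMUSG00000027111, chromosome 2, 71745616 to 71858416) encodes α6, which pairs with β1 or, in hemidesmosomes, with β4. Its FPKM was 26.0 without and 9.68 with DFX in HM, and 31.2 without and 19.5 with DFX in LM. The change with DFX was called in HM (log2 -1.34) and not in LM (log2 -0.65). Itga7 (ENSMUSG00000025348, chromosome 10, 128933813 to 128958277), the laminin receptor subunit best known from muscle, stood at 7.98, 4.48, 6.54 and 3.26 in the same order, with log2 changes of -0.71 and -0.83 that were not called. The FPKM of the 3 laminin-binding α subunits summed to 448 in HM_Ctrl and 372 in LM_Ctrl, and to 70.9 in HM_DFX and 106 in LM_DFX.

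Of the α subunits that bind proteins with an Arg-Gly-Asp sequence, such as fibronectin and vitronectin, each had a pattern of its own. Itga5 (ENSMUSG00000000555, chromosome 15, 103344286 to 103366763, minus strand) encodes α5, which with β1 is the main fibronectin receptor. It stood at 18.3 (HM_Ctrl), 51.3 (HM_DFX), 22.3 (LM_Ctrl) and 66.2 (LM_DFX), so both DFX libraries were above both controls. The ratio was 2.80-fold in HM (2.63 to 2.99) and 2.97-fold in LM (2.81 to 3.14). Itga5 was the only expressed member called higher with DFX, and it was called in both clones, at log2 changes of 1.44 and 1.53.

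Itgav (ENSMUSG00000027087, chromosome 2, 83724397 to 83806916), the α chain of the vitronectin receptors, varied least in this class, from 20.4 in HM_DFX to 31.0 in LM_DFX, with 25.5 in HM_Ctrl and 28.2 in LM_Ctrl. Itga8 (ENSMUSG00000026768, chromosome 2, 12106632 to 12301922), known as the receptor subunit for nephronectin in kidney development, was nearly confined to HM. It was read from 1027 fragments in HM_Ctrl and 228 in HM_DFX, against 10 in LM_Ctrl and 14 in LM_DFX, which gave FPKM of 8.32, 2.15, 0.0863 and 0.0868. HM_Ctrl was 96.5-fold above LM_Ctrl (52.2 to 202) and HM_DFX was 24.8-fold above LM_DFX (14.5 to 46.1). The secreted ligand of α8, Npnt, was expressed in both clones at 23.6 without and 6.87 with DFX in HM, and 16.5 without and 6.86 with DFX in LM.

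Without DFX the expressed collagen-binding α subunits went opposite ways between the clones. Itga2 (ENSMUSG00000015533, chromosome 13, 114835916 to 114932041), which encodes the collagen and laminin receptor subunit α2, stood at 9.11 (HM_Ctrl), 5.14 (HM_DFX), 25.3 (LM_Ctrl) and 27.5 (LM_DFX). Both LM libraries were above both HM libraries, by 2.77-fold without DFX (2.60 to 2.96) and by 5.36-fold with it (4.93 to 5.83). Itga1 (ENSMUSG00000042284, at 114958079 to 115101964 on the same chromosome) encodes α1, a receptor subunit for collagen IV. It stood at 3.20 in HM_Ctrl and at 0.326, 0.616 and 0.321 in HM_DFX, LM_Ctrl and LM_DFX, so a single library was above an FPKM of 1. These genes lie on the same strand with 26037 bases between them. In the untreated clones Itga1 was 5.20-fold higher in HM (4.42 to 6.15), and under DFX its interval included equal levels (ratio 1.02, 0.761 to 1.35). Of its exon bases, 3.68% also belong to the gene Gm49395 on the same strand.

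**Figure D1:**
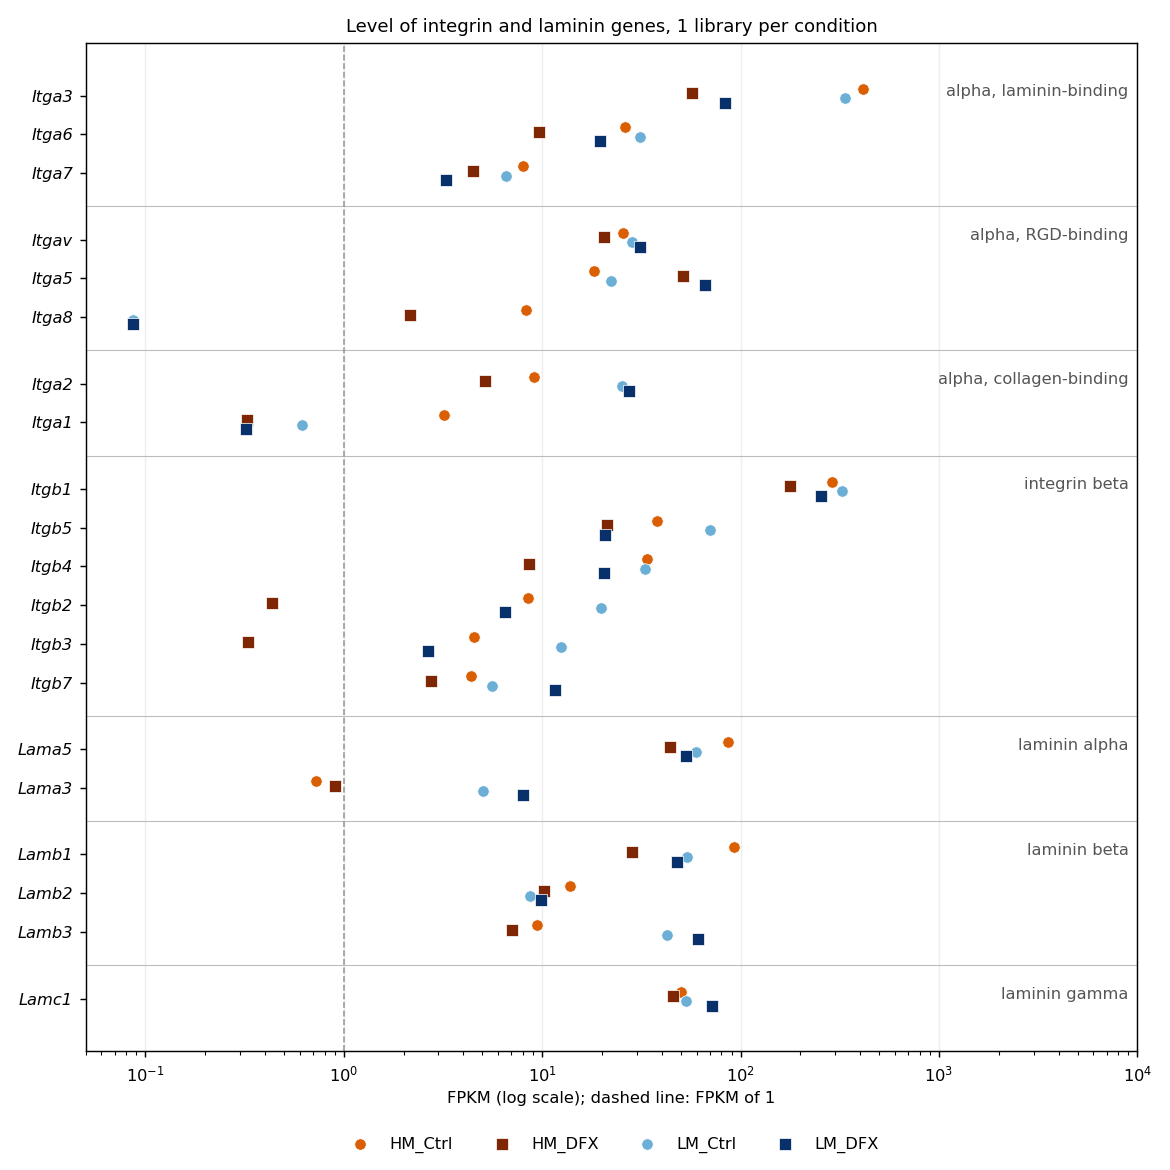
FPKM of 20 expressed members on a log axis, 1 point for each of the 4 libraries (circles DMSO, squares DFX, orange and brown HM, light and dark blue LM), ordered by subunit class and by the level in HM_Ctrl. Itga3 lies at 335 and 414 in the controls and at 56.7 and 83.4 with DFX, and Itga8 lies under 0.1 in both LM libraries.

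Among the β subunits, Itgb1 (ENSMUSG00000025809, chromosome 8, 128685654 to 128733200), the common partner of most α subunits, held 76.4% of the summed integrin β FPKM without and 84.1% with DFX in HM, and 69.5% and 80.2% in LM. Its FPKM was 289, 177, 323 and 254 in the same order, with log2 changes with DFX of -0.70 in HM and -0.35 in LM, neither called. The gene Itgb4 (ENSMUSG00000020758, chromosome 11, 115974709 to 116008412) encodes β4, the hemidesmosome subunit. It was alike in the controls, 33.7 in HM_Ctrl and 33.0 in LM_Ctrl, and stood at 8.61 in HM_DFX and 20.6 in LM_DFX. HM was 3.91-fold lower with DFX (3.63 to 4.21) and LM 1.60-fold lower (1.53 to 1.68), of which the change in HM was called. On the opposite strand, 7.66% of its exon bases are shared with another gene.

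Itgb5 (ENSMUSG00000022817, chromosome 16, 33829665 to 33949153), a vitronectin receptor subunit, was the member called lower with DFX in LM and not in HM. Its FPKM was 38.0 without and 21.3 with DFX in HM, and 70.1 without and 20.8 with DFX in LM. The clones differed by 1.84-fold without DFX (1.75 to 1.95), and under DFX their interval included equal levels (ratio 1.02, 0.944 to 1.11). Itgb3 (ENSMUSG00000020689, chromosome 11, 104608000 to 104670476), which pairs with αv and, in platelets, with αIIb, stood at 4.52, 0.330, 12.4 and 2.66 in HM_Ctrl, HM_DFX, LM_Ctrl and LM_DFX. The fragments behind these were 447, 28, 1154 and 344. With DFX it was 13.7-fold lower in HM (9.34 to 20.8) and 4.67-fold lower in LM (4.13 to 5.28), both called.

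Itgb2 (ENSMUSG00000000290, chromosome 10, 77530252 to 77565708) and Itgb7 (ENSMUSG00000001281, chromosome 15, 102215995 to 102231935) encode subunits known from leukocytes. Itgb2 stood at 8.47 (HM_Ctrl), 0.433 (HM_DFX), 19.8 (LM_Ctrl) and 6.53 (LM_DFX), from 433, 19, 952 and 436 fragments. It was 19.5-fold lower with DFX in HM (12.4 to 32.8) and 3.04-fold lower in LM (2.71 to 3.41). Itgb7 was lower in HM_DFX (2.74) than in HM_Ctrl (4.38) and higher in LM_DFX (11.6) than in LM_Ctrl (5.56). Its ratio in LM was 2.08 (1.80 to 2.42), but its log2 change of FPKM + 1 was 0.94, just under the call.

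The usual partners of these leukocyte subunits were nearly unread. The 6 rows of leukocyte α subunits (Itgad, Itgae, Itgal, Itgax and the 2 rows of Itgam) summed to an FPKM between 0.02 and 0.064 in a library, and Itga4 and Itga9 together to at most 0.0149. Lcp1, of the leukocyte markers, was also higher in LM than in HM and lower with DFX, as Itgb2 was, while Cd68 was higher with DFX in both clones, at log2 changes of 1.46 in HM and 2.66 in LM. The part of these markers in the values of Itgb2 was not tested. In all, 16 rows did not reach an FPKM of 1, and 6 of them were at 0 throughout. Itgb6, the epithelial partner of αv, was the highest of these at 0.724 in LM_Ctrl, and Itga10, Itga11, Itgb8, Lama1, Lama2, Lama4 and Lamc3 were the others outside the leukocyte and α4/α9 classes.

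Among the laminin chains, Lamb3 and Lama3, known from the anchoring of epithelia, were higher in LM with and without DFX. Lamb3 (ENSMUSG00000026639, chromosome 1, 193207699 to 193343878) encodes the β3 chain and stood at 9.42 without and 7.07 with DFX in HM, and 42.5 without and 61.2 with DFX in LM. LM was higher by 4.52-fold without DFX (4.22 to 4.84) and 8.66-fold with it (8.00 to 9.38). Lama3 (ENSMUSG00000024421, chromosome 18, 12333819 to 12583013), the α3 chain, was under 1 in HM_Ctrl (0.728) and HM_DFX (0.901) and stood at 5.00 in LM_Ctrl and 8.00 in LM_DFX. Both genes were called lower in HM in both clone comparisons, and neither was called with DFX within a clone.

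Of the chains of the widespread basement membrane laminins, Lama5 (ENSMUSG00000015647, chromosome 2, 180176373 to 180225859), the epithelial α5 chain, stood at 86.1 (HM_Ctrl), 44.0 (HM_DFX), 59.4 (LM_Ctrl) and 52.8 (LM_DFX). The log2 change with DFX was -0.95 in HM and -0.17 in LM. Lamb1 (ENSMUSG00000002900, chromosome 12, 31265234 to 31329644), the β1 chain, stood at 92.9, 28.3, 53.7 and 47.7 in the same order. It was the laminin gene called lower with DFX, in HM, by 3.28-fold (3.17 to 3.40), while LM differed by 1.13-fold (1.10 to 1.16). For both genes HM_Ctrl was the highest of the 4 libraries and HM_DFX the lowest.

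Lamb2 (ENSMUSG00000052911, chromosome 9, 108479736 to 108490530), the β2 chain, lay between 8.73 in LM_Ctrl and 13.9 in HM_Ctrl, with 10.2 in HM_DFX and 9.81 in LM_DFX. Lamc1 (ENSMUSG00000026478, chromosome 1, 153218922 to 153332786), the γ1 chain of most laminins, stood at 49.8 without and 45.6 with DFX in HM, and 52.8 without and 71.4 with DFX in LM. Neither gene was called in any comparison.

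With DFX the make-up of the integrin α class shifted in both clones. The summed FPKM of the expressed α genes was 513 (HM_Ctrl), 151 (HM_DFX), 449 (LM_Ctrl) and 231 (LM_DFX). Itga3 held 80.8% of it in HM_Ctrl and 74.5% in LM_Ctrl, and 37.7% and 36.0% in HM_DFX and LM_DFX. Itga5 held 3.57% and 4.97% in the controls and 34.1% and 28.6% with DFX. The FPKM of Itga3 over that of its partner Itgb1 was 1.43 in HM_Ctrl and 1.04 in LM_Ctrl, and 0.32 and 0.329 with DFX. The same ratio for Itga5 was 0.0633 and 0.0692 in the controls and 0.29 and 0.261 with DFX.

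Other partners moved together or apart. The FPKM of Itga6 over Itgb4, which form 1 receptor, stayed between 0.773 and 1.12 over the 4 libraries. Itgav over Itgb3 was 5.64 without and 61.7 with DFX in HM, and 2.27 without and 11.6 with DFX in LM. The value of 61.7 divides by an Itgb3 FPKM of 0.330 from 28 fragments, so its size is uncertain. In the laminins, Lama5 held between 86.8% and 99.2% of the α chains. Lamb1 held most of the β chains in HM_Ctrl (80.0%) and HM_DFX (62.1%), and Lamb3 held 40.5% in LM_Ctrl and 51.6% in LM_DFX. By fragments without the division by length, Lamb3 held 43.2% in LM_DFX and Lamb1 50.5%, so the leading β chain in that library rests on the length correction.

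**Figure D2:**
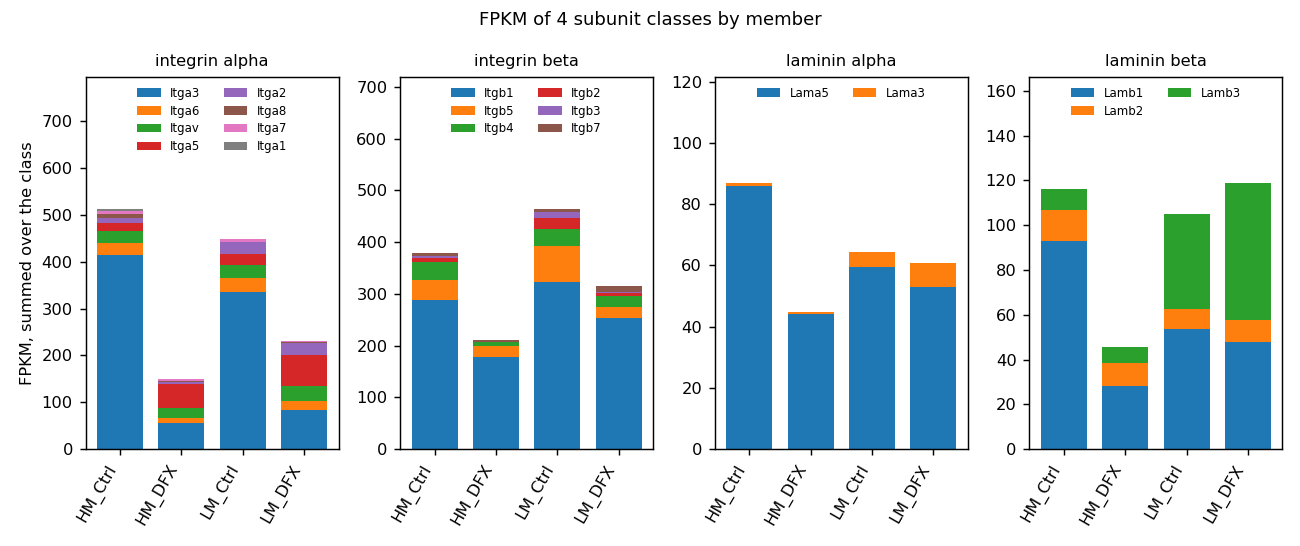
Summed FPKM of 4 subunit classes in the 4 libraries, stacked by expressed gene, each panel with its own axis from 0. Itga3 fills most of the α bars of the controls (80.8% and 74.5%) and 37.7% and 36.0% of those with DFX, and Lamb3 holds 51.6% of the laminin β bar of LM_DFX.

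The filter on low values let Itga1 pass through HM_Ctrl alone, Itga8 through the HM libraries alone and Lama3 through the LM libraries alone, so these genes had to differ and the counts over expressed members are a description. Over the 21 expressed members, 8 were called lower with DFX in HM and 1 higher, where 12.4% of all expressed genes were called lower and 6.93% higher. In LM, 4 were called lower and 1 higher, against 8.72% and 7.09% of all expressed genes. The median log2 change of the members was -0.72 in HM and -0.17 in LM, beside medians over all expressed genes of -0.10 and -0.04. With median-ratio scaling the median over all genes in HM moved to 0.00 and that of the members to -0.60, and over all genes 1280 were then called lower and 1128 higher, instead of 1568 and 878.

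The 14 expressed integrin genes and the 7 laminin genes did not share 1 pattern. Of the integrins, 7 were called lower with DFX in HM and 4 in LM, with medians of -1.07 and -0.50. Of the laminins, 1 was called lower in HM and none in LM, with medians of -0.37 and 0.15. Itga3, Itgb2 and Itgb3 were called lower in both clones. Called lower in HM alone were Itga1, Itga6, Itga8, Itgb4 and Lamb1, and in LM alone Itgb5. For Itga1 and Itga8 the FPKM in LM_Ctrl was 0.616 and 0.0863, so with a pseudocount of 1 no fall in LM could be called. Without the pseudocount Itga1 was 1.92-fold lower with DFX in LM (1.52 to 2.44).

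The difference between the responses, HM minus LM on the log2 scale, was below 0 for 18 of the 21 members. The share of all expressed genes below 0 was not computed, so the count of 18 cannot be read as high or low. The median was -0.69, beside -0.08 over all expressed genes with quartiles of -0.42 and 0.24. The difference reached 2-fold for 6 members, all with the lower response in HM. Of all expressed genes, 5.38% were that far lower and 3.52% that far higher. These were Itga1 (-1.37), Itga8 (-1.56), Itgb2 (-1.26), Itgb4 (-1.19), Itgb7 (-1.46) and Lamb1 (-1.51). With a pseudocount of 0.1 the count was 7. Itgb3 was then added, with log2 changes of -3.43 in HM and -2.18 in LM. Itga1 and Itga8 passed the filter through HM libraries alone and were under an FPKM of 1 in both LM libraries. With a pseudocount of 1 a large fall could therefore show only in HM for these genes, and their part in the count of 6 is no finding. For Itga8 the LM libraries held 10 and 14 fragments, too few for a response to be read there. The other members with a lower value in HM included Itga3 at -0.85, Lamb3 at -0.88 and Lama5 at -0.79, and Itgb5 (0.90) and Itga7 (0.11) lay above 0. The responses of the 2 clones, measured in separate libraries, correlated at a Pearson r of 0.79 over the 21 members and of 0.72 over all 12669 expressed genes, given as a description because each gene is measured in the same 4 libraries.

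**Figure D3:**
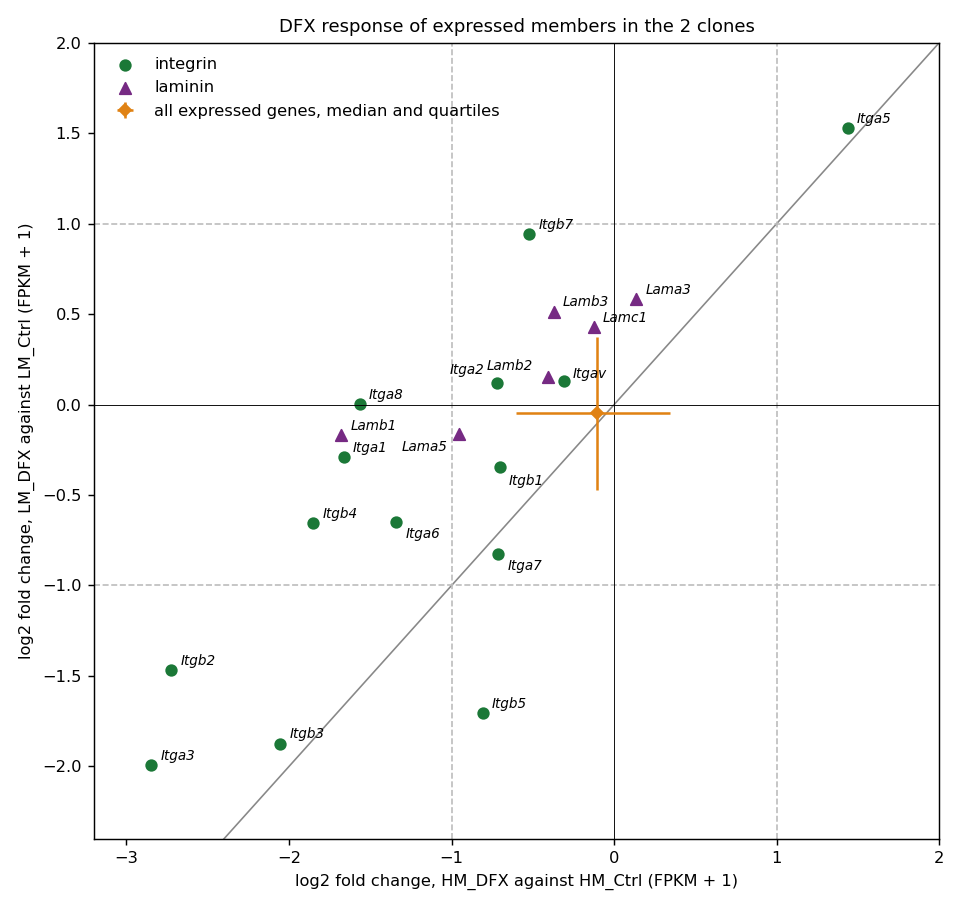
log2 fold change of FPKM + 1 with DFX in HM (horizontal axis) and in LM (vertical axis), 1 point for each of 20 expressed members, with the median and quartiles of all expressed genes as the orange cross, dashed lines at 2-fold and the diagonal of equal response. Of the 20 points, 18 lie to the left of the diagonal, and the share of all expressed genes on that side was not computed. Itga5 lies at 1.44 and 1.53, and Itga3 at -2.85 and -1.99.

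Between the clones without DFX, 2 members were called higher in HM (Itga1 and Itga8) and 6 lower (among them Itga2, Itgb2, Itgb3, Lama3 and Lamb3), where 3.65% of all expressed genes were called higher and 3.15% lower. Under DFX, 1 was called higher in HM (Itga8) and 8 lower, against 3.31% and 5.05% of all expressed genes. Among these 8 were Itga2, Itgb2, Itgb3, Itgb4, Itgb7, Lama3 and Lamb3. Itga1 and Itga8 passed the filter through HM libraries alone and Lama3 through LM libraries alone. Their part in the counts of both clone comparisons is therefore no finding. Itgb4 differed by 0.03 on the log2 scale without DFX and by -1.17 with it, and Itgb7 by -0.29 and -1.75. Itga6 lay just under the call under DFX, at -0.94, with a ratio of 0.496 (0.465 to 0.528). The median over the 21 members was -0.16 without DFX and -0.64 with it, beside 0.01 and -0.05 over all expressed genes.

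**Figure D4:**
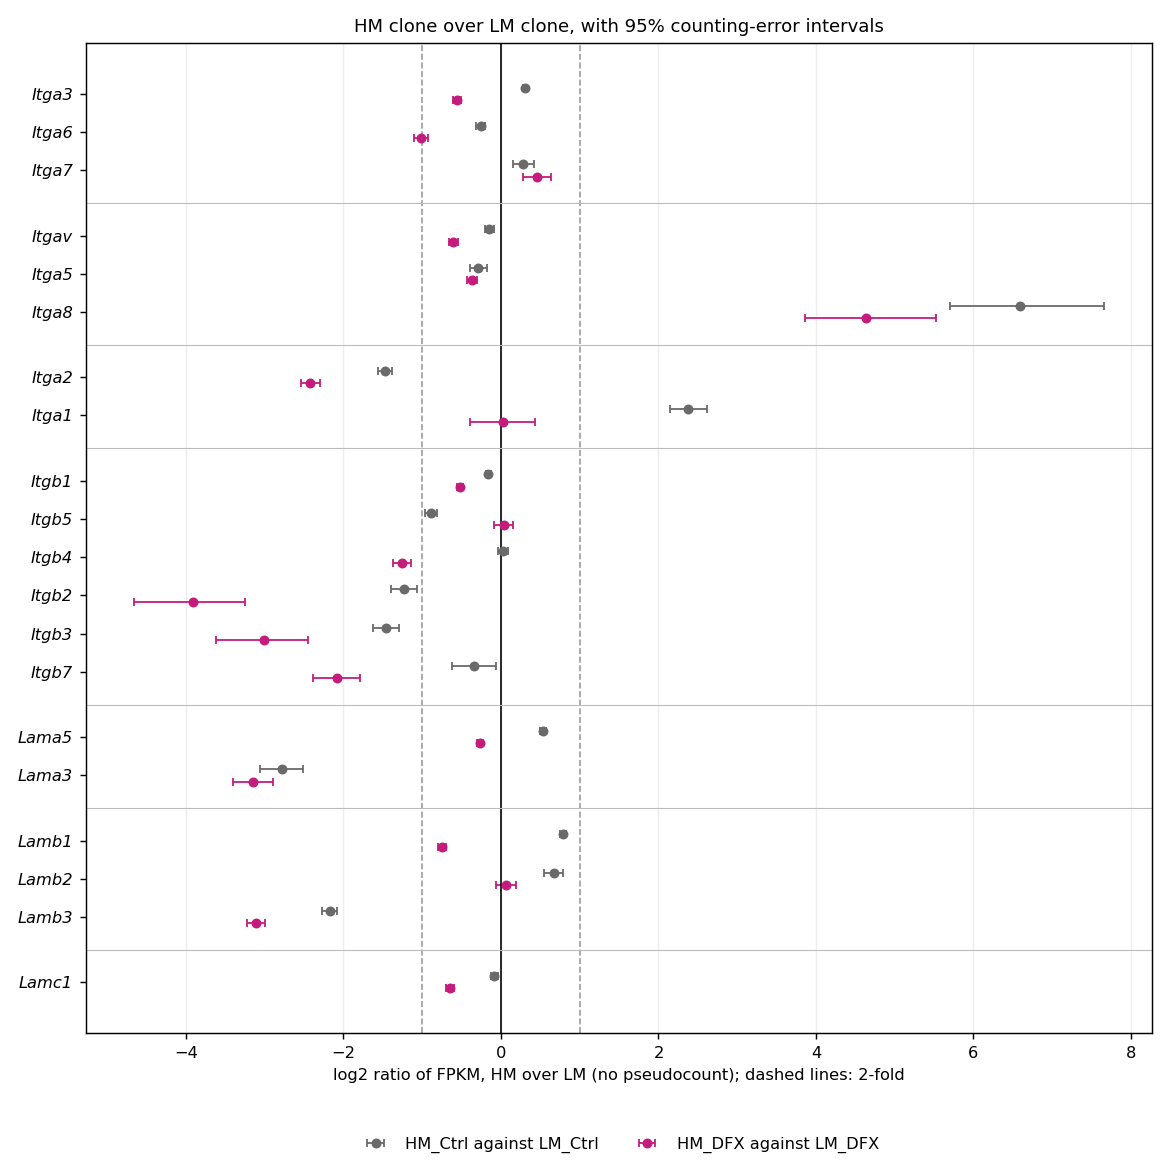
log2 ratio of FPKM of HM over LM for 20 expressed members, without DFX (grey) and with DFX (magenta), with exact 95% intervals for counting error only and no pseudocount, dashed lines at 2-fold. Lama3 and Lamb3 lie left of the line in both comparisons, and Itga8 lies far to the right with wide intervals from 10 and 14 fragments in LM.

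Promoter sequence was available for 13 of the 21 expressed members (RefSeq, GRCm38.p6), and the 250 bases before each start were searched on both strands. The letters ACGTG, a form of the core of the hypoxia response element, stood in none of the 13 and in 18.5% of the 27025 genes with an entry. The form GCGTG was not searched, so the absence covers ACGTG only. Of the windows printed below, that of Lamb3 holds GCGTG and that of Lamb1 its reverse complement. The letters TGANTCA, an AP-1 motif, stood in none and in 7.82% of all genes. The Sp1 box GGGCGG stood in 6 of the 13, namely Itga3, Itga5, Itgb1, Itgb5, Lama5 and Lamb1, and in 35.4% of all genes. Such a match is a description and not a binding site, and a missing match says only that these letters are not in this window. The promoters of Itga3 and Itga5 are shown because these genes moved furthest down and up in the α class by level, Lamb1 because it was the laminin called with DFX, and Lamb3 because it was called between the clones with and without DFX. Each is written 5′ to 3′ on the strand of its gene, with the Sp1 box or its reverse complement in capitals. The entries are chr11:95076715-95076964 (minus), chr15:103366792-103367041 (minus), chr12:31265043-31265292 (plus) and chr1:193301744-193301993 (plus). The last lies inside the gene as the expression matrix places it, and the windows of Itga3 and Lamb1 reach in part into theirs.
Itga3: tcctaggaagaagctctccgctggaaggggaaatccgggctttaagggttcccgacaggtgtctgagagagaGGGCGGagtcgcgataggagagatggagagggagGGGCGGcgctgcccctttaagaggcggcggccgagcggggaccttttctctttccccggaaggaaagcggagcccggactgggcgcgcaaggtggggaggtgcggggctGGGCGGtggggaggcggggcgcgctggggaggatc
Itga5: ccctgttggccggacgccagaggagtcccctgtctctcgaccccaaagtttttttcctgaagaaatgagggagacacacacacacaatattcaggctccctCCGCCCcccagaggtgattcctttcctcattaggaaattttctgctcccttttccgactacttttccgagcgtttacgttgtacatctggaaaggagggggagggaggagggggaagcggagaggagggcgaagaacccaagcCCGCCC
Lamb1: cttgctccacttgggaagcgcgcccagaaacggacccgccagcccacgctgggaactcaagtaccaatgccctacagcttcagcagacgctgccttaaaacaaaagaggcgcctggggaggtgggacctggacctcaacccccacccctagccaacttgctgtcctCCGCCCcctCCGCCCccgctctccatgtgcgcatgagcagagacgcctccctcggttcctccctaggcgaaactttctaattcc
Lamb3: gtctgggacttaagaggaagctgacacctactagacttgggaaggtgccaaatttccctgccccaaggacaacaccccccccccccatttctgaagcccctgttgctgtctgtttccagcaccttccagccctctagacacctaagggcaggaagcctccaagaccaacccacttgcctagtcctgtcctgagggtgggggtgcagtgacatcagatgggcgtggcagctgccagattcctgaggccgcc
The Itga3 window held 3 boxes, those of Itga5 and Lamb1 held 2 each, and that of Lamb3 held 0. Itga3 and Lamb3 each have another entry that is not shown, with 1 and 0 boxes. The bases after the start were found in a reference transcript for Itga3, Lamb1 and Lamb3, and not for Itga5. Whether the box had a part in the changes with DFX was not tested.

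The other genes of the adhesion pathway were taken from 4 lists with 71 genes, of which 54 were expressed. With DFX, 22 of the 54 were called lower and 1 higher in HM, where 12.4% and 6.93% of all expressed genes were so called, and 16 lower and 2 higher in LM, against 8.72% and 7.09%. The counts of the single lists stand beside the same shares. Of 26 genes listed as integrin adaptors and regulators, all expressed, 8 were called lower and 1 higher in HM, and 7 lower and 2 higher in LM. Of the 11 expressed ligands of integrins other than laminins, 6 were called lower in each clone. The largest falls by the naming rule were in Tns4, a focal adhesion protein, Ctgf, a matricellular protein, and Thbs1, a thrombospondin.

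Ctgf (ENSMUSG00000019997) stood at 22.9 (HM_Ctrl), 1.87 (HM_DFX), 103 (LM_Ctrl) and 2.75 (LM_DFX), with log2 changes of -3.05 and -4.79. Thbs1 (ENSMUSG00000040152) stood at 109, 35.7, 241 and 48.0 in the same order. Tns4 (ENSMUSG00000017607) stood at 132, 10.2, 43.5 and 9.29, a log2 change of -3.57 in HM and -2.11 in LM. No gene with an FPKM of 10 or more in these lists was called higher with DFX, and the largest positive log2 changes were 0.43 in HM and 0.92 in LM for Mfge8, a ligand of αv integrins, and 0.23 and 0.65 for Dst, a hemidesmosome linker. The fibronectin gene Fn1, the ligand of the α5 receptor, stood at 461 without and 285 with DFX in HM, and 271 without and 357 with DFX in LM, a log2 change of -0.69 in HM and 0.40 in LM.

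Of the 8 expressed partners of laminin in the basement membrane, 6 were called lower with DFX in HM and 2 in LM. Their medians were -1.14 and -0.39, beside -0.10 and -0.04 over all expressed genes, of which 12.4% were called lower in HM and 8.72% in LM. Col4a1 and Col4a2, the main collagen IV chains, stood at 118 and 88.3 in HM_Ctrl and at 39.4 and 37.9 after DFX, and at 86.2 and 59.6 in LM_Ctrl and at 65.1 and 65.8 after DFX. As for Lama5 and Lamb1, HM_Ctrl was the highest library and HM_DFX the lowest. Of 9 expressed genes for hemidesmosome linkers and other laminin receptors, 2 were called lower in HM and 1 in LM. Plec, which ties β4 to keratin, was called in both, from 23.6 to 9.42 in HM and from 35.4 to 12.6 in LM. Of the 7 epithelial markers, 5 were called lower with DFX in HM, and 3 lower and 1 higher in LM, so they did not all move alike. Krt8 stood at 593, 134, 963 and 339 in HM_Ctrl, HM_DFX, LM_Ctrl and LM_DFX. Krt19, the marker called higher in LM, stood at 101, 87.9, 46.4 and 103 in the same order. The part of these markers in the values of Itga3, Itga6 and Itgb4 was not tested.

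**Figure D5:**
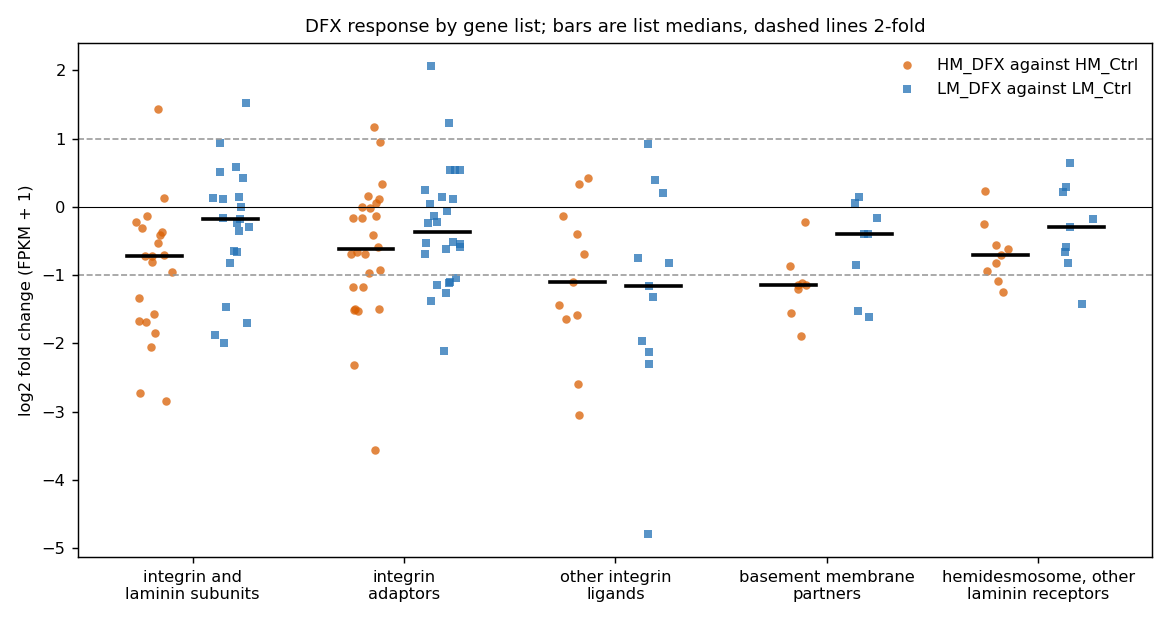
log2 fold change of FPKM + 1 with DFX in HM (orange circles) and LM (blue squares) for the expressed integrin and laminin genes and for 4 lists of related genes, with the list median as a bar and dashed lines at 2-fold. The members have medians of -0.72 and -0.17, and the basement membrane partners -1.14 and -0.39.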

How the data were processed

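Samples were grouped by their labels, 1 library per condition. The authors selected poly(A) RNA, made directional libraries and sequenced them as read pairs, and they deposited FPKM per gene with no filter on low values. The labels also mention removal of ribosomal RNA. Per the labels, the submitters' processing notes name FastQC, Trimmomatic, HISAT2, featureCounts and build mm10, and tool versions and the strand setting of the counting are not given in the sources used here. If strand was ignored, overlapping antisense genes share fragments (exon bases shared: Itgb4 7.66%, Itgav 5.90%, Itga8 5.05%, Lama3 1.83%). The authors called genes with edgeR, which was not repeated since the spread between cultures cannot be estimated from 1 library.

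Fold changes were log2 of the ratio of FPKM + 1 (pseudocount of 1), called at 2-fold among genes that reached an FPKM of 1 somewhere in the 4 libraries. Gene coordinates of 45128 rows equal those of GENCODE M21. With its exon lengths, FPKM came out as whole fragments, within 0.02, in all 4 libraries for 96.8% of 18236 genes above 0. Lengths of 7 member rows were solved from their own values. Intervals of ratios are exact (Clopper-Pearson) at 95%. These steps were tested on simulated data. Expressed members are named with their values, except for 1 that is counted but not reported here, and low members are given by their range. Figures of single genes show 20 members. From the other lists the genes named by rule are the pairs with the largest rise and fall with DFX in each clone with an FPKM of 10 or more in 1 of its libraries. The marker genes, Npnt, Fn1, Col4a1, Col4a2, Plec and Krt8 were named after their values were seen. Ctgf and Cyr61 stand for the listed Ccn2 and Ccn1. The members and lists were chosen with earlier results of these data known. Similar symbols outside the rule (Itga2b, Itgb2l and Itgbl1) enter no count. The settings varied were the pseudocount (0.1), the filter (none, or a mean FPKM of 1 or more), scaling by median-ratio or 75th percentile, a 1.5-fold threshold, single-digit symbols and class shares by fragments. Python 3.11.15, numpy 2.4.6, pandas 2.3.3 and scipy 1.17.1 were used.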

Additional observations from a re-analysis of the deposited data

Results flagged for a closer look

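In 7 members the value with DFX was below the control in HM and above it in LM. The share of all expressed genes with this pattern was not computed, so the count of 7 cannot be read as high or low. With 1 library per condition the difference between the clones was not tested. The response in HM minus that in LM was -0.84 for Itga2, -1.56 for Itga8, -0.44 for Itgav, -1.46 for Itgb7, -0.56 for Lamb2, -0.88 for Lamb3 and -0.55 for Lamc1 on the log2 scale of FPKM + 1. With median-ratio scaling the change of Lamc1 in HM turned from -0.13 to 0.01, so its direction in HM depends on the scaling. The counting-error intervals of the HM and LM ratios lay on opposite sides of 1 for all of these genes except Itga8. For Itga8 the interval of the LM ratio included 1 (1.01, 0.416 to 2.53), so the opposite direction was not detectable at this depth.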

How the results depend on the processing

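Under a pseudocount of 0.1, 2 members were called higher with DFX in LM, because Itgb7 moved from 0.94 to 1.05. Itga6 in HM_DFX against LM_DFX moved from -0.94 to -1.01. With no filter the medians over all 37 rows were 0.00 for HM_Ctrl against LM_Ctrl, -0.23 with DFX in HM, 0.00 with DFX in LM and 0.00 for HM_DFX against LM_DFX, since 16 rows lie near 0. With median-ratio scaling the median with DFX in HM was -0.60. At 1.5-fold, 4 members were higher in HM_Ctrl than in LM_Ctrl, 13 lower with DFX in HM, 2 higher and 7 lower with DFX in LM, and 12 differed in response between the clones. Of 252 fold changes of named members recomputed with another pseudocount or scaling, 93 were called, 0 of them changed sign, and 2 calls were gained. Class shares without the length division moved by up to 10.4 percentage points, and the leading member was the same in 19 of 20 class and library pairs, Lamb3 in LM_DFX being the exception. Over all expressed genes, a pseudocount of 0.1 called 883 higher and 674 lower in HM_Ctrl against LM_Ctrl (462 and 399 at 1), 1234 and 2397 with DFX in HM (878 and 1568), 1349 and 1721 with DFX in LM (898 and 1105) and 810 and 1183 in HM_DFX against LM_DFX (419 and 640). The 1.5-fold threshold called 1329 and 1102, 2031 and 3297, 2088 and 2528, and 1260 and 1848 in the same order. No other count of members moved by over 1.5 times and no other median by over 0.1. No replicate could be left out, because each condition has 1 library, so the intervals say nothing of variation between cultures. Depth limits Itga8 in LM and Itgb2 and Itgb3 in HM_DFX, which rest on 10 to 28 fragments.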

Other observations

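Similar symbols outside the rule were low. Itga2b, the platelet partner of β3, had an FPKM of 0.120 (HM_Ctrl), 0.996 (HM_DFX), 0.140 (LM_Ctrl) and 0.193 (LM_DFX), so it stayed just under 1 in HM_DFX. Itgb2l and Itgbl1 were listed at 0 in all libraries. Of the kindlins, which activate integrins, Fermt1 stood at 7.57 without and 2.81 with DFX in HM, and 14.1 without and 5.33 with DFX in LM and was called lower with DFX in both clones. Fermt2 stood at 29.4, 26.8, 30.5 and 44.8 and was called in no comparison. Lims2, an adaptor of the integrin-linked kinase complex, was the adaptor called higher with DFX in both clones, from 2.26 to 6.35 in HM and from 0.301 to 4.44 in LM. These genes were chosen after their values were seen.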
